A study of Mus musculus with 6 samples.

Results

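Fc receptors are the cell-surface proteins that bind the constant part of antibodies, and 8 mouse genes of this family were taken for description in lung: Fcgr2b, Fcgr1, Fcgr3, Fcgr4, Fcer1g, Fcer1a, Fcer2a and Fcgrt. They were chosen by symbol, through probe sets to which the platform annotation gives exactly 1 gene. In this way 7 of the 8 were measured, each by 1 probe set, among 19935 genes in all. Fcgrt, the receptor that carries IgG across cells and spares it from breakdown, is listed for no probe set in the annotation used here and was not analysed here.

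The tissue was whole lung of Scnn1b-Tg mice, which carry a transgene for the sodium channel gene Scnn1b (the channel's β subunit), and of wild-type mice, all on the C57BL/6 background, with 3 arrays for each genotype. The stated purpose was a search for candidate genes of emphysema. The labels give no age, sex or batch and do not say whether the samples came from separate animals, so the spread between arrays may be technical in part. The labels do not name the promoter of the transgene; in the published Scnn1b-Tg line it is that of the club cell secretory protein, which acts in airway epithelium.

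Receptors for IgG fall into activating and inhibitory kinds. Activating receptors signal through a tyrosine motif called ITAM, which for most of them lies on a separate partner, the common γ chain encoded by Fcer1g; Src-family kinases and Syk read this motif and start phagocytosis, degranulation and cytokine release. The inhibitory receptor Fcgr2b carries an opposing motif, ITIM, in its own tail and recruits the lipid phosphatase encoded by Inpp5d. In lung these receptors are known from macrophages, monocytes, dendritic cells, neutrophils and B cells, while the receptors for IgE are known from mast cells, basophils and B cells.

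The bases around the start sites of 4 of the genes are shown because these genes span the range of differences seen: Fcgr2b, Fcgr3 and Fcer1g had the 3 largest differences between genotypes, and Fcgr1 stood for an activating receptor with a small one. Each window runs from 250 bases before the start to 50 after it, 5′ to 3′ on the gene's strand, from RefSeq on GRCm38.p6. The windows are chr1:170976022-170976321 for Fcgr2b, chr1:171059354-171059653 for Fcgr3, chr1:171234300-171234599 for Fcer1g and chr3:96293920-96294219 for Fcgr1, all on the minus strand. Capitals mark every match, on either strand, to GAGGAA (a core bound by PU.1, a transcription factor of myeloid and B cells).
Fcgr2b: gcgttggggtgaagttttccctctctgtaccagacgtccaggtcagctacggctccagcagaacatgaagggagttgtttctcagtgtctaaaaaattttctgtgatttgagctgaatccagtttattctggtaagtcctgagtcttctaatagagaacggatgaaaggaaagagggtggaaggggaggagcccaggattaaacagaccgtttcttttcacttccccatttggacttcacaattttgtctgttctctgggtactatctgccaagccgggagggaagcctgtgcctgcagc
Fcgr3: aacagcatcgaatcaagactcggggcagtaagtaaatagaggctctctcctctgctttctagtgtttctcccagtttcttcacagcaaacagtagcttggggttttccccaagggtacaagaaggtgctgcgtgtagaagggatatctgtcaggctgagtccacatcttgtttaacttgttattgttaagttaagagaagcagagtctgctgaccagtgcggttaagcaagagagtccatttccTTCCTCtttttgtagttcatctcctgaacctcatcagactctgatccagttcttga
Fcer1g: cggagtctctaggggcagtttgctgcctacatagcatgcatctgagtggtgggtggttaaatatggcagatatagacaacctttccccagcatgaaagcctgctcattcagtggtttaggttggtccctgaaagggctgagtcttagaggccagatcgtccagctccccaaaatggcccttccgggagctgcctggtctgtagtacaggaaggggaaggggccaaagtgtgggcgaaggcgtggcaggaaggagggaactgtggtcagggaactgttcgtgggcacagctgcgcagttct
Fcgr1: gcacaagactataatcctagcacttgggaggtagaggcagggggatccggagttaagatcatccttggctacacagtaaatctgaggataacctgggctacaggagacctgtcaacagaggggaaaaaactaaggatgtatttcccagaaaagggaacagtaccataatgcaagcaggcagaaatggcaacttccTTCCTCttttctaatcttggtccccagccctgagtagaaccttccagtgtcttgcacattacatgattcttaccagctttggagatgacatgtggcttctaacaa
With the start at 0, Fcgr3 had 1 GAGGAA match on the opposite strand at -6. Another listed start of Fcgr3 puts the same match at -15. Both starts lie inside the gene's listed span, chr1:171051169-171065915, and not at its end. Fcgr1 had 1 match on the opposite strand at -55. The windows of Fcgr2b and Fcer1g held 0 matches, which says only that these letters are not in these windows. Of the genes not shown, Fcgr4 had 1 match on the opposite strand at -22. Fcer1a had 1 on its own strand at -216, and each listed window of Fcer2a held 0. Among 32817 windows of the same length, 28.3% held GAGGAA.

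The values are RMA intensities on a linear scale, with array medians of 47.6 to 48.5 and lowest values of 18.3 to 18.6. A difference is given as the log2 fold change, Scnn1b-Tg over wild type, with its standard error (SE) from limma fitted across all genes, and genes with an adjusted p under 0.05 were called. Counts of genes with higher or lower means go by the mean of log2 values, which can differ in direction from linear means. Scnn1b, the gene of the transgene, averaged 1422 ± 98.3 in Scnn1b-Tg and 139.7 ± 31.9 in wild type (SD, n = 3 each), and it was the only gene called (0.00502% of those tested). Wild type replicate 2 and Scnn1b-Tg replicate 3 stood apart on the first principal components of all genes, at 16.3 on the first (other arrays -8.91 to 5.46) and at -13.3 on the second (others -2.47 to 8.03). Values without both arrays are given for every receptor gene and every gene list. Levels of different genes are not set against each other, since each has its own probe set.

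Of the 7 genes measured, 0 passed the test over all genes, while 3 (Fcgr2b, Fcgr3 and Fcer1g) had an unadjusted limma p under 0.05, all with higher means in Scnn1b-Tg. Among all genes 6.01% had such a p, 3.96% with a higher and 2.05% with a lower mean. The 3 Scnn1b-Tg arrays lay wholly above the 3 wild-type arrays for 2 of the 7, Fcgr2b and Fcer1g, against 6.26% of all genes, and wholly below for 0 of the 7, against 4.41%. By sign 5 were higher and 2 lower, while 53.2% of all genes were higher. The median log2 fold change was 0.05 over the 7 and 0.0052 over all 19935 genes. The genes were picked with earlier results of these data known, so these shares describe them and no more.

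**Figure D1:**
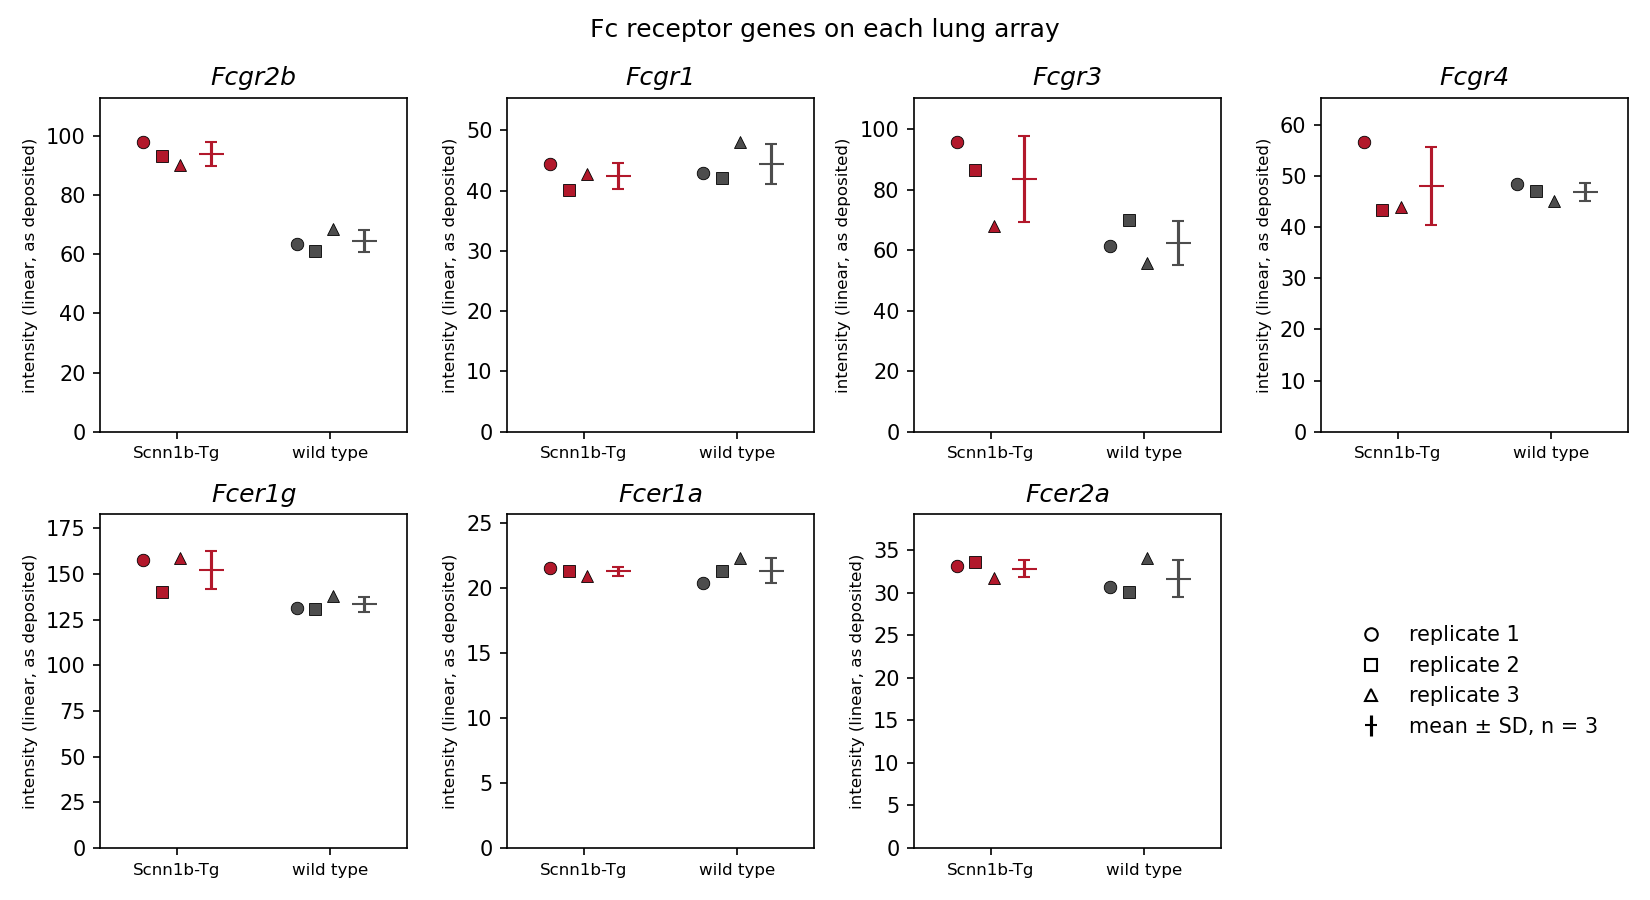
Linear intensity of the 7 measured Fc receptor genes on each array, Scnn1b-Tg in red and wild type in grey, with symbols for the replicate number and bars for the mean ± SD of 3 arrays. The genotypes are separate for Fcgr2b (90.4 to 98.2 against 61.1 to 68.4) and Fcer1g, and overlap for the others.

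Fcgr2b, the inhibitory receptor for IgG, had the largest difference of the family. Its probe set (10360028) gave 98.2, 93.2 and 90.4 on the Scnn1b-Tg arrays, against 63.6, 61.1 and 68.4 on the wild-type arrays. The lowest transgenic array was thus well clear of the highest wild-type one, and the 3 arrays of each genotype lay close together. The means were 93.9 ± 3.94 in Scnn1b-Tg and 64.4 ± 3.70 in wild type (SD, n = 3 each), a 1.46-fold difference. The log2 fold change was 0.55 ± 0.06 (SE; 95% interval, not adjusted for the number of genes, 0.41 to 0.68) with an adjusted p of 0.109 in limma. Its unadjusted p ranked 4 among the 19935 genes. Fcgr2b was called when the 6645 dimmest genes were dropped (adjusted p = 0.0196), when the variance followed a robust trend on intensity (0.0231), and when 16 was taken off each value before log2 (0.0320, log2 fold change 0.69). It was not called under the other alternatives, with adjusted p-values from 0.0620 to 0.485.

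Fcgr3, a low-affinity activating IgG receptor of macrophages, neutrophils and natural killer cells, came next by size but varied more. Its probe set (10360040) gave 96.0, 86.5 and 68.0 in Scnn1b-Tg, against 61.3, 70.0 and 55.7 in wild type. Scnn1b-Tg replicate 3 fell below wild type replicate 2, and these are the arrays that stood apart over all genes. The means were 83.5 ± 14.2 in Scnn1b-Tg and 62.3 ± 7.22 in wild type (SD, n = 3 each), a log2 fold change of 0.41 ± 0.14 (SE, adjusted p = 0.747). Without both arrays it was 0.64 (adjusted p = 0.210), and without Scnn1b-Tg replicate 1 it was 0.31. Fcgr2b and Fcgr3 have closely similar extracellular parts, and whether their probes share target sequence was not tested.

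The other activating IgG receptors showed no difference beyond the spread of the arrays. Fcgr1, the high-affinity IgG receptor of monocytes and macrophages, gave 44.4, 40.1 and 42.8 in Scnn1b-Tg, against 42.9, 42.1 and 48.1 in wild type (probe set 10500335). Its groups overlapped, and the highest value was that of wild type replicate 3. This gave a log2 fold change of -0.06 ± 0.07 (SE, adjusted p = 0.969) with a 95% interval of -0.22 to 0.10. Fcgr4, a mouse activating receptor for IgG2 subclasses on monocytes, macrophages and neutrophils, gave 56.8, 43.3 and 44.0 in Scnn1b-Tg, against 48.5, 47.0 and 45.1 in wild type (probe set 10351509). Scnn1b-Tg replicate 1 alone lay above every wild-type array, and the others lay below them all. Fcgr4 had a log2 fold change of 0.02 ± 0.11 (SE, adjusted p = 0.995; 95% interval -0.22 to 0.27), and it was -0.10 without Scnn1b-Tg replicate 1.

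Fcer1g, the common γ chain on which Fcgr1, Fcgr3, Fcgr4 and the high-affinity IgE receptor depend, had a small difference. Its probe set (10360070) gave 158, 140.0 and 159 in Scnn1b-Tg, against 132, 131 and 138 in wild type. The groups did not overlap, although Scnn1b-Tg replicate 2 lay close to wild type replicate 3. The means were 152 ± 10.6 in Scnn1b-Tg and 134 ± 4.14 in wild type (SD, n = 3 each), a difference of 13.9%. The log2 fold change was 0.19 ± 0.06 (SE, adjusted p = 0.739; 95% interval 0.04 to 0.33), and it ran from 0.14 to 0.25 over 16 alternatives.

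The 2 receptors for IgE differed by less than the spread of the arrays. Fcer1a, the chain of the high-affinity receptor that binds IgE on mast cells and basophils, gave 21.6, 21.3 and 20.9 in Scnn1b-Tg, against 20.4, 21.3 and 22.3 in wild type (probe set 10360338). All these values are close to the lowest intensities on the arrays, so a difference in this gene would have little room to show. The log2 fold change was -0.0033 ± 0.05 (SE, adjusted p = 0.998; 95% interval -0.12 to 0.11), and its sign turned in 4 of 15 alternatives. Fcer2a, the lectin-type low-affinity IgE receptor of B cells, gave 33.2, 33.6 and 31.7 in Scnn1b-Tg, against 30.7, 30.1 and 34.1 in wild type (probe set 10576757). The highest value was that of wild type replicate 3 and the groups overlapped. The log2 fold change was 0.05 ± 0.06 (SE, adjusted p = 0.973; 95% interval -0.09 to 0.20). With both arrays that stood apart left out, log2 fold changes were 0.54 for Fcgr2b, -0.11 for Fcgr1, 0.08 for Fcgr4, 0.14 for Fcer1g, 0.0072 for Fcer1a and 0.04 for Fcer2a.

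**Figure D2:**
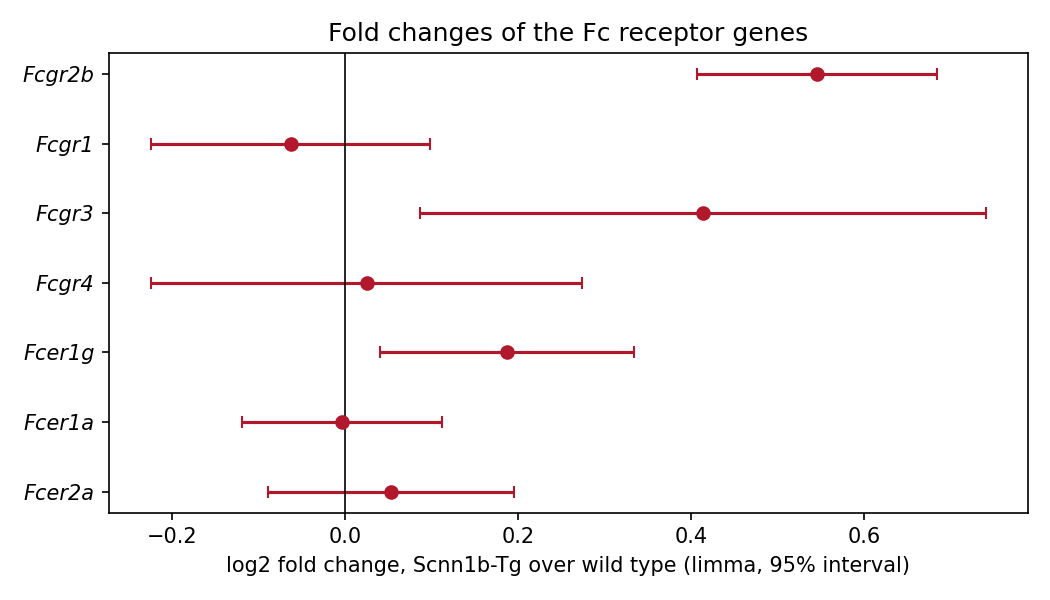
Log2 fold change of each measured Fc receptor gene, Scnn1b-Tg over wild type, with the 95% interval of the limma fit (not adjusted for the number of genes). The intervals of Fcgr2b (0.41 to 0.68), Fcgr3 (0.09 to 0.74) and Fcer1g (0.04 to 0.33) lie above 0, and those of the other 4 genes span it.

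To ask whether the inhibitory and the activating IgG receptors differed in step, the log2 value of each activating receptor was subtracted from that of Fcgr2b on each array. Only the change of this quantity between genotypes can be read, not its level. Against Fcgr1 it was 1.14, 1.22 and 1.08 in Scnn1b-Tg and 0.57, 0.54 and 0.51 in wild type, with no overlap and narrow groups. The difference was 0.61, with an exact permutation p of 0.1 (two-sided), the smallest that 3 arrays against 3 can give. Against Fcgr4 it was 0.79, 1.11 and 1.04 in Scnn1b-Tg and 0.39, 0.38 and 0.60 in wild type, again with no overlap, a difference of 0.52 (exact permutation p = 0.1). Against Fcgr3 it was 0.03, 0.11 and 0.41 in Scnn1b-Tg and 0.05, -0.20 and 0.30 in wild type, so the groups overlapped. That difference was 0.13 (exact permutation p = 0.5), and it was -0.10 without wild type replicate 2 and Scnn1b-Tg replicate 3. Adjusted over the 3 pairs the exact p-values were 0.15, 0.15 and 0.5, so the design could not pass the threshold for any of them. All 3 pairs use the same Fcgr2b values, so they are no separate evidence for its difference.

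**Figure D3:**
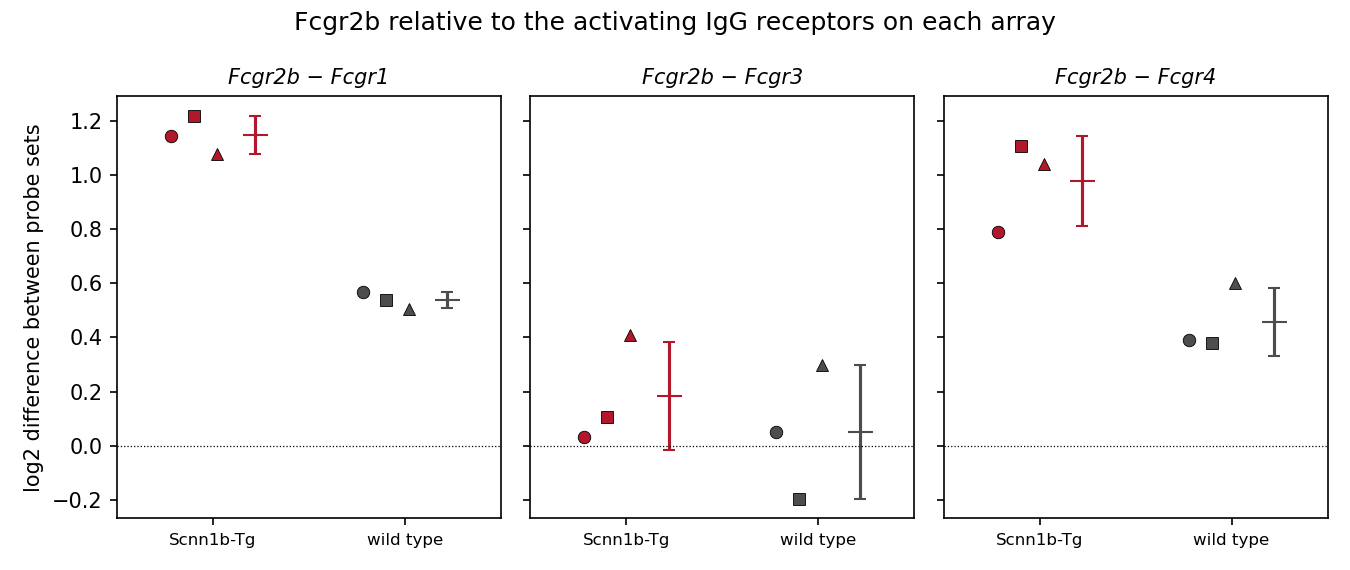
Log2 intensity of Fcgr2b minus that of Fcgr1, Fcgr3 or Fcgr4 on each array, Scnn1b-Tg in red and wild type in grey, with symbols for the replicate number as circle 1, square 2 and triangle 3 and bars for the mean ± SD of 3 arrays. The genotypes are separate against Fcgr1 and Fcgr4 and overlap against Fcgr3.

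Fcgr2b, Fcgr4, Fcgr3 and Fcer1g follow each other in this order on chromosome 1 in the RefSeq gene table. Of the 38 further genes listed between Fcgr2b and Fcer1g, 7 were measured. Their log2 fold changes ran from -0.03 for the noncoding Gm10522 to 0.13 for Sdhc, a subunit of mitochondrial succinate dehydrogenase, and the groups overlapped for every one of them. Fcgr2b at 0.55 and Fcgr3 at 0.41 thus lay above all 7 measured neighbours, while Fcgr4, which lies between the pair, was at 0.02. The difference between members and neighbours was not tested.

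The genes whose pattern was most like that of Fcgr2b over the 6 arrays, by the root mean square difference of log2 values after each gene's mean was removed, were C1qb, Acp5 and Man2b1, at 0.04, 0.05 and 0.05. C1qb encodes a chain of complement C1q made by macrophages, Acp5 the tartrate-resistant acid phosphatase of macrophages and osteoclasts, and Man2b1 a lysosomal mannosidase. Their own log2 fold changes were 0.54, 0.51 and 0.49. C1qb averaged 113 in Scnn1b-Tg and 77.8 in wild type, and Man2b1 averaged 354 in Scnn1b-Tg and 253 in wild type. For Fcer1g the nearest were Arpc1b, a subunit of the actin-nucleating Arp2/3 complex, Ckmt1, a mitochondrial creatine kinase, and Snx5, a sorting nexin, at 0.03, 0.04 and 0.04. These genes were picked for likeness over the same 6 arrays, so their similar fold changes follow from the choice. The likeness is a description.

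**Figure D4:**
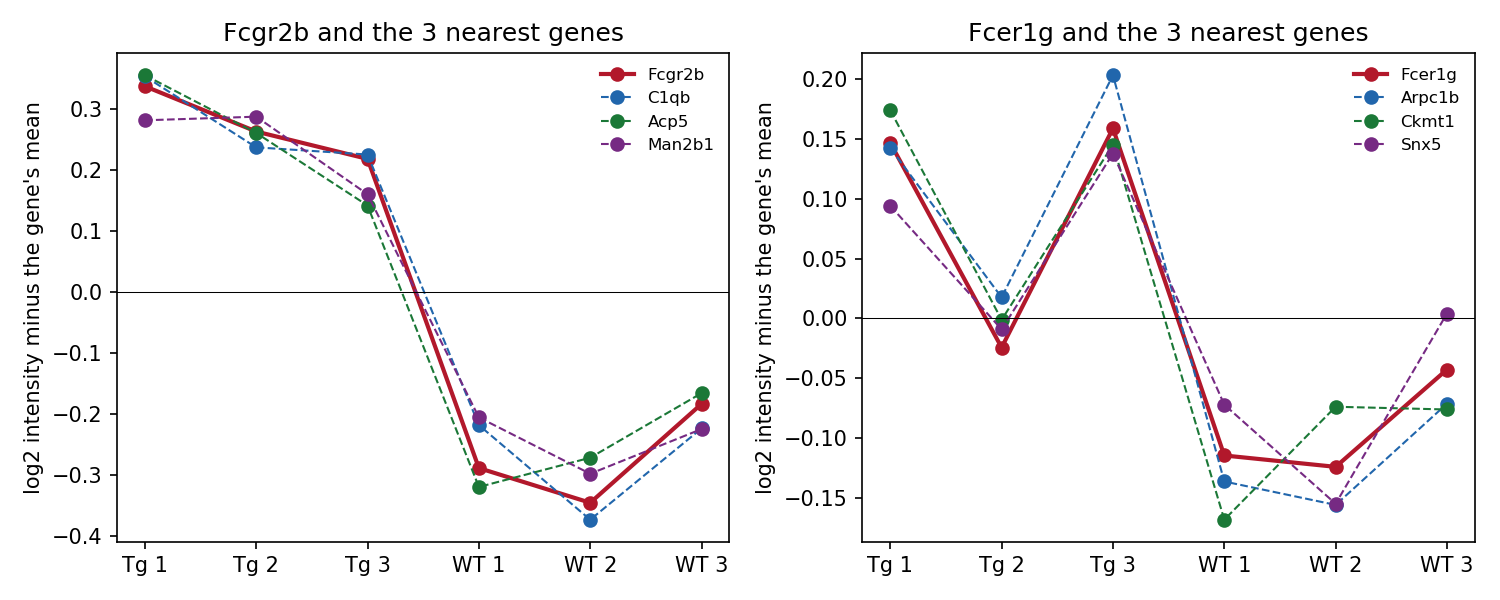
Log2 intensity minus the gene's mean over the 6 arrays, for Fcgr2b (left) and Fcer1g (right) in solid red and for the 3 genes with the smallest root mean square difference from each in dashed lines; Tg is Scnn1b-Tg and WT wild type. Fcgr2b, C1qb, Acp5 and Man2b1 are above 0 on all 3 Scnn1b-Tg arrays and below 0 on all 3 wild-type arrays, while Fcer1g is just below 0 on Scnn1b-Tg replicate 2.

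Downstream of the receptors, 17 of 18 measured genes of activating ITAM signalling had higher means in Scnn1b-Tg, against 53.2% of all genes, with a median log2 fold change of 0.15. None was called. Of the 18, 8 had an unadjusted limma p under 0.05 and a higher mean, against 3.96% of all genes. For 8 the Scnn1b-Tg arrays lay wholly above wild type, against 6.26% of all genes. Pik3cg, a catalytic subunit of phosphoinositide 3-kinase, gave 71.8, 85.1 and 78.7 in Scnn1b-Tg, against 55.8, 52.3 and 56.7 in wild type, with no overlap (log2 fold change 0.51 ± 0.07, SE). Plcg2, the phospholipase C that follows Syk in myeloid and B cells, gave 0.36 ± 0.05, and Rac2, a GTPase of phagocytes, 0.41 ± 0.07. Without the pair of arrays that stood apart 14 of the 18 had higher means, with a median of 0.17.

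Of 12 measured genes of the opposing, inhibitory arm 11 had higher means in Scnn1b-Tg, with a median log2 fold change of 0.18. For 5 the Scnn1b-Tg arrays lay wholly above wild type (6.26% of all genes). Inpp5d, the phosphatase that Fcgr2b recruits, gave 168, 171 and 157 in Scnn1b-Tg, against 136, 145 and 149 in wild type. These groups did not overlap, and the log2 fold change was 0.20 ± 0.06 (SE). The adaptors Dok2 and Dok3, which dampen signals from immune receptors, gave 0.37 ± 0.05 and 0.33 ± 0.09. None of the 12 was called, and without the pair of arrays 9 of 12 had higher means, with a median of 0.10.

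Among 11 measured genes listed as partner subunits or Fcer1g-coupled receptors, 8 had higher means, with a median of 0.04 (7 and 0.03 without the pair of arrays). Not every gene of this list is known to use Fcer1g. Tyrobp, the other ITAM adaptor of myeloid cells, gave 161, 118 and 149 in Scnn1b-Tg, against 101, 108 and 103 in wild type, with no overlap (log2 fold change 0.45 ± 0.11, SE). Clec4n, a lectin receptor for fungal sugars that pairs with Fcer1g, gave 0.23 ± 0.06, and Nfam1 0.19 ± 0.10. Ms4a2, the β chain of the high-affinity IgE receptor, gave 22.3, 21.3 and 21.2 in Scnn1b-Tg, against 21.6, 21.7 and 23.3 in wild type, near the lowest values like Fcer1a.

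Of 10 other Fc-binding and Fc receptor-like genes 7 had higher means, with a median of 0.06 (7 and 0.03 without the pair of arrays). The smallest p among them was that of Pigr, the epithelial receptor that carries polymeric IgA into secretions. It gave 70.7, 104.8 and 91.8 in Scnn1b-Tg, against 58.3, 58.6 and 54.1 in wild type, with no overlap, and its log2 fold change was 0.63 ± 0.13 (SE). Fcrlb and Fcrl6, Fc receptor-like genes, gave -0.12 ± 0.07 and -0.08 ± 0.05. On the side of the ligands only 4 of 12 listed antibody genes were measured, of which 3 had higher means with a median of 0.26, and 2 with a median of -0.00026 without the pair of arrays. Jchain, which joins polymeric IgA and IgM, gave 25.6, 22.7 and 49.6 in Scnn1b-Tg, against 21.9, 22.1 and 22.1 in wild type. Scnn1b-Tg replicate 3 was high for Jchain, and also for Igha, the IgA heavy chain (86.1, with 42.4 to 51.9 on the other 2 transgenic arrays and 35.3 to 51.1 in wild type). Ighm, the IgM heavy chain, gave 0.11 ± 0.13.

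**Figure D5:**
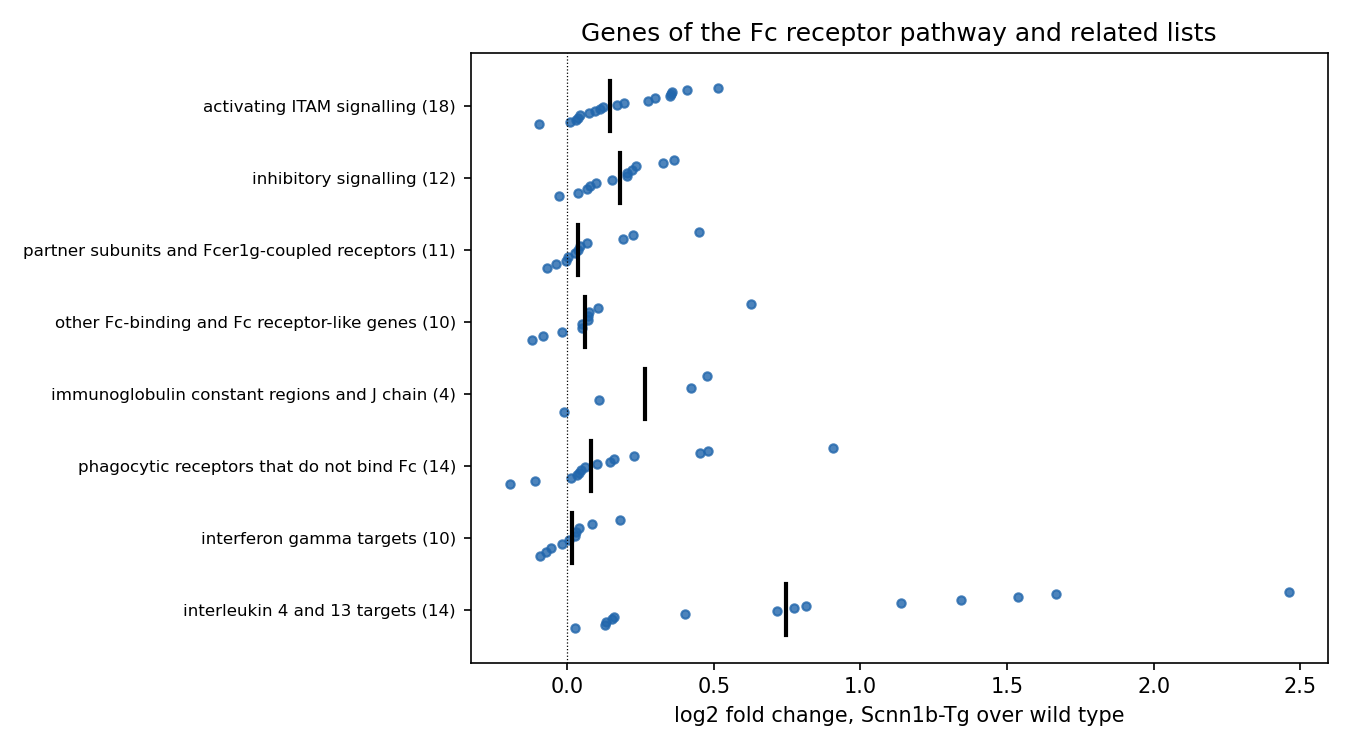
Log2 fold change, Scnn1b-Tg over wild type, of each measured gene of 8 lists (1 point a gene, number of genes in brackets), with the list median as a black bar. Medians lie between 0.02 for interferon gamma targets and 0.74 for interleukin 4 and 13 targets.

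Fcgr1 is known to be induced by interferon gamma in macrophages and Fcer2a by interleukin 4 in B cells, so targets of both cytokines were set beside the receptors. Of 10 measured interferon gamma targets 6 had higher means, with a median log2 fold change of 0.02. For 0 of them the genotypes were separate in either direction, while 6.26% of all genes lay wholly above and 4.41% wholly below. Irf8, a transcription factor of the myeloid line, gave 0.18 ± 0.07 (SE), Ido1 -0.09 ± 0.06 and Irf1 -0.07 ± 0.05. Of 14 measured interleukin 4 and 13 targets 14 had higher means, with a median of 0.74. For 11 the Scnn1b-Tg arrays lay wholly above wild type (6.26% of all genes). Arg1, the arginase of alternatively activated macrophages, gave 114, 79.7 and 82.9 in Scnn1b-Tg, against 41.1, 39.0 and 44.1 in wild type (1.14 ± 0.14). None of either list was called, and the difference between the lists was not tested. Without the pair of arrays 6 of 10 and 14 of 14 had higher means, with medians of 0.03 and 0.65. Ccl24, an eosinophil chemokine, gave 0.72 ± 0.07 and Alox15, a lipoxygenase, 2.46 ± 0.27.

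Of phagocytic receptors that do not bind Fc, 12 of 14 had higher means, with a median of 0.08 (10 of 14 and 0.04 without the pair of arrays). Itgam, the αM chain of complement receptor CR3, gave 128, 87.3 and 104.0 in Scnn1b-Tg, against 64.6, 50.2 and 54.3 in wild type, a log2 fold change of 0.91 ± 0.15 (SE). Its partner Itgb2 gave 0.45 ± 0.12, and Clec7a, the β-glucan receptor, 0.48 ± 0.15.

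In whole lung, more cells of a type and more RNA per cell cannot be told apart, so the markers of cells that bear Fc receptors are given beside these values. For interstitial and monocyte-derived macrophages 11 of 11 measured markers had higher means in Scnn1b-Tg, with a median log2 fold change of 0.39, and their summed intensity was 1169.8 to 1324 in Scnn1b-Tg and 882 to 936 in wild type. C1qa gave 0.39 ± 0.05 (SE) and Cd68, a lysosomal protein of macrophages, 0.33 ± 0.04. For 8 of these 11 the Scnn1b-Tg arrays lay wholly above wild type (6.26% of all genes). The groups overlapped for Cx3cr1 (0.03 ± 0.09), Cd14 (0.06 ± 0.06) and Ms4a7 (0.11 ± 0.06), named after their values were seen. Without the pair of arrays 9 of the 11 had higher means, with a median of 0.34. Alveolar macrophage markers gave 6 of 9 higher with a median of 0.07 (5 of 9 and 0.06 without the pair of arrays), and a sum of 3109.8 to 3777 in Scnn1b-Tg and 1753 to 2088 in wild type. Without Chil3, a chitinase-like protein (1.34 ± 0.19), the sums overlapped, at 948 to 1165 in Scnn1b-Tg and 944 to 1013 in wild type. Itgax gave 0.53 ± 0.08 and Siglecf 0.39 ± 0.09, while Fabp1, named after its value was seen, gave -0.36 ± 0.12 with the Scnn1b-Tg arrays wholly below wild type. As a list, though not evenly, the interstitial and monocyte-derived markers were higher alongside Fcgr2b, Fcgr3 and Fcer1g. Fcgr1 and Fcgr4, also receptors of monocytes and macrophages, showed no such difference, with log2 fold changes of -0.06 and 0.02. The part of these markers in the values of the receptors was not tested.

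Eosinophil markers gave 7 of 7 higher with a median of 0.39 (7 of 7 and 0.49 without the pair of arrays). Their sum was 568 to 999 in Scnn1b-Tg and 288 to 323 in wild type. Alox15 (mean 364) was the largest part of the sum in Scnn1b-Tg, and Alox15 and Siglecf also stand in other lists. Ccr3, the eotaxin receptor, gave 1.40 ± 0.32 (SE). For 5 of the 7 the Scnn1b-Tg arrays lay wholly above wild type (6.26% of all genes). The groups overlapped for Epx (0.07 ± 0.05) and Ear6 (0.21 ± 0.14). Dendritic cell markers gave 8 of 9 higher, a median of 0.10 (9 of 9 and 0.11 without the pair) and sums of 414 to 507 in Scnn1b-Tg and 399.6 to 427 in wild type, with 0.24 ± 0.07 for Batf3, 0.21 ± 0.09 for Flt3 and 0.58 ± 0.27 for Cd209a. Neutrophil markers gave 6 of 10 higher, a median of 0.03 and sums of 715 to 967 in Scnn1b-Tg and 481 to 620.0 in wild type, led by Retnlg (1.38 ± 0.35), Ltf (0.28 ± 0.10) and Mmp8 (-0.12 ± 0.05). Without Retnlg these sums overlapped, at 403 to 469 in Scnn1b-Tg and 387 to 439.5 in wild type. Without the pair of arrays that stood apart 2 of the 10 were higher, with a median of -0.10.

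For mast cells and basophils, the bearers of Fcer1a, 8 of 11 markers had higher means with a median of 0.05 (7 of 11 and 0.04 without the pair of arrays). Their sum was 969.6 to 1003 in Scnn1b-Tg and 919.8 to 1054 in wild type, and 3 of the 11 had a mean intensity under 25, close to the array floor. Kit (mean 422 in Scnn1b-Tg and 438 in wild type), Gata2 (172 and 175) and Hdc (170 and 146) made up most of this sum. The other markers lay below the array medians, so the sum says little of them. Gata2 was counted as higher by its log2 fold change, 0.0020. Hdc, which makes histamine, gave 0.23 ± 0.07 (SE), the carboxypeptidase Cpa3 0.12 ± 0.06 and the chymase Cma1 0.08 ± 0.06. For B cells, the bearers of Fcer2a, 7 of 9 markers had higher means with a median of 0.07 and a sum of 571.5 to 703 in Scnn1b-Tg and 495 to 672 in wild type. Bank1 gave 0.21 ± 0.13, Cd79b 0.18 ± 0.15 and Cd79a 0.18 ± 0.19. With that pair left out, 5 of the 9 B cell markers had higher means, with a median of 0.0015. The sums of both lists overlapped between the genotypes. The values of Fcer1a, close to the array floor, and of Fcer2a overlapped too. A link between these markers and the IgE receptors was not tested.

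Plasma cell markers gave 5 of 6 higher (median 0.05), with 0.13 ± 0.05 (SE) for Sdc1, 0.11 ± 0.05 for Mzb1 and 0.07 ± 0.06 for Xbp1. Natural killer cell markers gave 5 of 9 higher (median 0.01) with sums of 252 to 267 in Scnn1b-Tg and 246 to 263 in wild type, and 5 of the 9 had a mean under 25. Klrd1 gave 0.17 ± 0.09, Gzma -0.07 ± 0.05 and Eomes -0.04 ± 0.04. T cell markers gave 4 of 7 higher (median 0.02), with 0.16 ± 0.06 for Cd3g, 0.13 ± 0.08 for Cd3d and -0.06 ± 0.05 for Cd5. Endothelial markers gave 0 of 7 higher (median -0.03), led by Cldn5 at -0.16 ± 0.09, Kdr at -0.12 ± 0.06 and Tek at -0.10 ± 0.05. Lung epithelial markers gave 5 of 8 higher (median 0.0084), with -0.31 ± 0.07 for Scgb1a1, -0.19 ± 0.12 for Lamp3 and 0.14 ± 0.10 for Sftpa1; their summed intensity of 20541 to 21668 in Scnn1b-Tg and 20648 to 22963 in wild type, with surfactant genes among them, fits the labelled tissue. With the pair left out, 5 of 6 plasma cell, 4 of 9 natural killer cell, 4 of 7 T cell, 0 of 7 endothelial and 3 of 8 epithelial markers had higher means. The medians were then 0.07, -0.0068, 0.03, -0.10 and -0.02 in the same order. None of these markers was called.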

How the data were processed

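Total RNA of mouse lung, extracted with Trizol, was labelled for sense-target whole-transcript Affymetrix arrays, per the labels' protocols. Per the submitters' processing notes, RMA made the deposited values, which are linear intensities per probe set. The sources used here do not give its version, its settings or any constant added to the values. A constant would make log2 fold changes of dim genes too small. The platform annotation gave exactly 1 symbol to 21780 of the 28815 probe sets and several to 1605, and it did not list 5430. By Entrez identifier 21689 matched RefSeq, and 0 symbols changed. The brightest probe set per gene left 19935 genes.

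The log2 values were tested for genotype alone with limma 3.58.1 (R 4.3.3; lmFit, then eBayes; 4 residual and 6.99 moderated degrees of freedom). P-values are two-sided and Benjamini-Hochberg adjusted over every gene. The fit was run on simulated data drawn from its own variance model. Such data do not cover departures of these arrays from that model. Differences between receptors were tested by exact permutation. With 3 arrays per genotype, the number of arrays limits the precision. The Fc receptor genes and 20 lists (212 entries, 196 measured) were chosen with earlier results of these data known; from each list the 3 genes with the smallest p were named. Antibody genes without a single-symbol probe set were not analysed here.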

Additional observations from a re-analysis of the deposited data

How the results depend on the processing

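Over 16 alternatives the count of called genes was 1 as reported, 39 when the 6645 dimmest genes were dropped, 36 when the variance followed a robust trend on intensity, 23 with 16 subtracted, 3 with a replicate block and 6 without wild type replicate 2 and Scnn1b-Tg replicate 3. Over single arrays left out it ran from 0 (without wild type replicate 3) to 5 (without Scnn1b-Tg replicate 3). The count of Fc receptor genes called was 0 as reported. It was 1, Fcgr2b, with the dimmest genes dropped, with the robust trend and with 16 subtracted. In the others it was 0, leaving out single arrays included. Dropping dim genes meant that fewer genes were tested, and the variance was fitted anew on the genes kept. The cause of the changes in count was not tested. The log2 fold change of Fcgr2b ran from 0.51 to 0.69 and was 0.55 with the replicate block (adjusted p = 0.222); the block called 0 Fc receptor genes. The labels do not say whether samples of the same number were paired. Their deviations from the group means correlated at 0.03, 0.03 and 0.04, which with 3 arrays per genotype cannot exclude a pairing. Fcgr3 ran from 0.31 to 0.64 and Fcgr1 from -0.11 to -0.0028. Fcgr4 turned to -0.00047 with median centring, -0.10 without Scnn1b-Tg replicate 1 and -0.0025 without wild type replicate 3, with a range of -0.10 to 0.094 over single arrays left out. Fcer1a turned to 0.00011 with quantile normalization, 0.0072 without the pair of arrays, 0.0084 without Scnn1b-Tg replicate 3 and 0.030 without wild type replicate 3, with a range of -0.035 to 0.030 over single arrays left out. Fcgr2b minus Fcgr3 turned to -0.10 without the pair of arrays and, over single arrays left out, ran from 0.0086 to 0.25. Fcgr2b minus Fcgr1 ran from 0.57 to 0.79 and Fcgr2b minus Fcgr4 from 0.45 to 0.66. Fcer1a and Fcer2a were among the dimmest genes and had no value in that setting, and admitting probe sets of several symbols for the Fc receptor genes gave no value, since none of them lists such a gene. Without the pair of arrays the neutrophil markers higher were 2 of 10 in place of 6, and the epithelial ones 3 of 8 in place of 5. Leaving the pair out of the list counts, and Chil3 and Retnlg out of summed levels, was chosen after seeing the data.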
